A study of Homo sapiens with 4 samples.

Results

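RPRD1A, RPRD1B, RPRD2, SCAF4, SCAF8 and U2SURP were examined, 6 of the 60708 genes in a TT-seq count table. They are the genes of the human proteins with a CTD-interaction domain (CID), other than PCF11 and CHERP, and were found by matching the stable gene identifiers of the table to GENCODE symbols. All 6 were present and all 6 passed the filter on low counts. In TT-seq, cells take up 4-thiouridine (4-SU), here over 20 min, and RNA fragments that carry it are enriched before sequencing. This favors newly made and largely unspliced transcripts. HEK293 cells, an established human line from embryonic kidney, were used in the RPB1 degron genotype, in which auxin removes the endogenous RPB1, the largest subunit of RNA polymerase II (Pol II). They were transfected with a plasmid for one of 2 forms of RPB1, 52x WT, with the unchanged CTD, or 52x T4A, in which threonine 4 of each of the 52 repeats is alanine. Auxin was added 48 h after transfection and kept for 48 h, in both conditions. There were 2 libraries of each condition and none without auxin or without a plasmid. The transfection was transient, and the share of cells that took up the plasmid is not given in the sources used here. The labels do not say whether the libraries of a condition came from separate cultures, so p-values measure only the spread between these libraries, which may be technical.

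The CTD is a long tail of heptad repeats on RPB1 whose phosphorylation changes as Pol II moves along a gene. A CID is a helical fold that binds this tail, mostly in its phosphorylated form, and so brings its protein to Pol II during elongation and termination. RPRD1A and RPRD1B, close relatives that pair with each other, bind the CTD and assist the phosphatase RPAP2. RPRD2 is a larger relative. SCAF4 and SCAF8 keep Pol II from using early polyadenylation sites, and U2SURP is a splicing factor associated with the U2 snRNP. A change of threonine 4 alters the surface to which CIDs bind. The comparison here asks whether transcription of the CID genes themselves differed when the CTD lacked this residue.

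No difference in nascent RNA between 52x T4A and 52x WT was called for any of the 6 genes. The log2 fold changes, T4A minus WT, lay between -0.09 for RPRD1A and 0.17 for RPRD1B, with standard errors between 0.09 and 0.11. The adjusted p-values ran from 0.459 to 0.981 (edgeR's quasi-likelihood test, Benjamini-Hochberg adjustment over 23321 genes). With this test 0.00429% of all genes tested were called, a single gene, so 0 calls among 6 genes is also the share of the background. At an unadjusted p below 0.05 the background was 15.5%, with 7.45% higher and 8.02% lower in T4A, and 0 of the 6 genes were past it. DESeq2 called 8.39% of the genes to which it gave an adjusted p, and also 0 of the 6. Other settings with more calls than edgeR, a replicate block (2.29% of genes called), scaling to mitochondrially encoded genes (2.29%) and no filter on low counts (0.382%), gave 0 of the 6 as well, as did halved counts (0.00491%). Under TMM scaling the 95% intervals of the fold change reached from 0.8 to 1.34 over the 6 genes. TMM takes most genes as unchanged, so these bounds are relative to them, and a change shared by most genes would not show. With scaling to mitochondrially encoded genes RPRD1B, the highest of the 6, had a log2 fold change of 0.425 (standard error 0.236). In these bulk samples fewer transcribing cells and less RNA per cell cannot be told apart.

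Several facts of the libraries bear on these values. The counts summed to 39249066 and 45605027 in the WT libraries and to 33853507 and 33188536 in the T4A libraries. Log2 CPM correlated over all genes tested at 0.991 between the WT libraries and at 0.979 between the T4A libraries. T4A replicate 1 stood apart, with correlations of 0.975 and 0.974 with the WT libraries, against 0.989 and 0.988 for T4A replicate 2. Without T4A replicate 1 the log2 fold changes of the 6 genes ran from -0.149 for RPRD1A to 0.0835 for RPRD1B, and none was called (adjusted p = 0.677 to 0.977, edgeR). Between 82.1% and 86.2% of genes listed with 1 to 20 counts had an even count, as arises where both mates of a read pair are counted. POLR2A, the gene of RPB1, held 0.961% and 0.843% of the WT counts and 0.743% and 0.842% of the T4A counts. Its normalized CPM (the count scaled by library size and TMM factor) was 9180 ± 651 (SD, n = 2) in WT and 7790 ± 418 (SD, n = 2) in T4A, and the log2 fold change of -0.24 was not called (adjusted p = 0.659, edgeR). Plasmid and endogenous RNA are not separated in this count, so it checks neither the degron nor the plasmid. All 6 fixed embryonic kidney regulators were measured, with a summed level of 127 to 139 CPM, scaled here and for the next lists by library size alone. The summed levels were 6.8 to 8.79 CPM for 4 blood cell markers and 2.5 to 3.86 CPM for 4 fibroblast markers. For the 3 endothelial markers found of 4 they were 3.57 and 3.93 CPM in WT and 5.38 and 4.34 CPM in T4A. None of these markers was at 0 in all libraries, and their part in the results was not tested.

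The spans over which reads were counted differ from the RefSeq genes for some members. This matters for any level per length and for what a difference between conditions covers. The listed length equals the whole span for every gene, introns included, and the exons (GENCODE, by identifier) cover between 5.38% and 11.74% of the spans of the 6 genes. On GRCh38, RPRD1A (ENSG00000141425.18) lies on chromosome 18 from 35984387 to 36067576 on the minus strand. RPRD1B (ENSG00000101413.12) lies on chromosome 20 from 38033725 to 38127780 on the plus strand. RPRD2 (ENSG00000163125.16) lies on chromosome 1 from 150363091 to 150476566 on the plus strand. Each of these 3 spans is free of any annotated gene on its own strand. SCAF4 (ENSG00000156304.15) lies on chromosome 21 from 31671000 to 31732118 on the minus strand. SCAF8 (ENSG00000213079.10) lies on chromosome 6 from 154733378 to 154834244 on the plus strand, and its last 1548 bp are shared with TIAM2. U2SURP (ENSG00000163714.18) lies on chromosome 3 from 142964497 to 143060725 on the plus strand. Its first 37063 bp are shared with the lncRNA gene PAQR9-AS1 of the same strand. Reads over genes of one strand that overlap were not counted, as shown by 1120 of 1120 lncRNA genes listed at 0 that lie inside a gene of their own strand with at least 1000 counts. That leaves 59.2 of the 96.2 kb of U2SURP countable. The span of RPRD1B runs 35.4 kb past the RefSeq end, against a RefSeq gene of 58.6 kb. SCAF4 and SCAF8 have the same ends in both annotations.

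**Figure D1:**
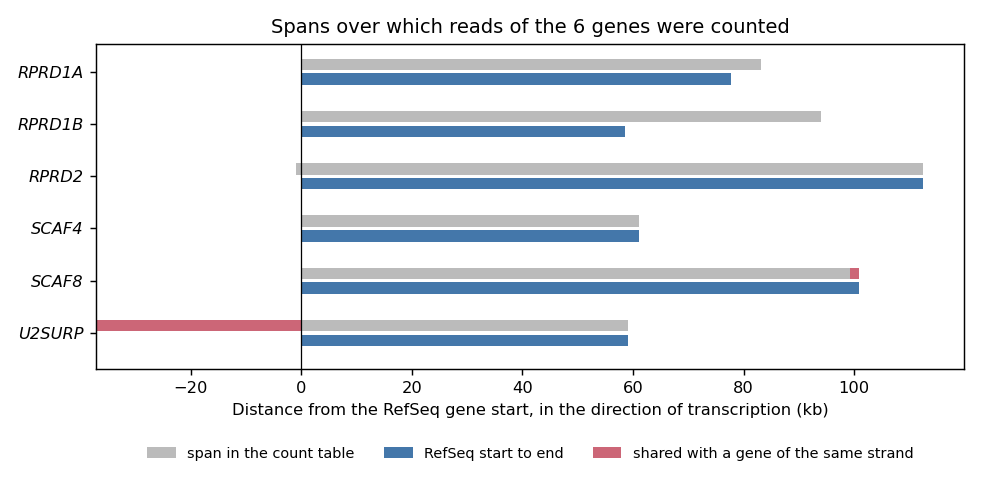
Spans of the 6 genes, with distance from the RefSeq gene start in kb on the horizontal axis and transcription from left to right. Gray bars are the spans of the count table, blue bars run from the RefSeq start to the RefSeq end, and red parts are shared with a gene of the same strand and were not counted. The table's span of RPRD1B extends 35.4 kb past the RefSeq end and that of U2SURP 37.1 kb before the RefSeq start.

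Transcription of each gene starts at its promoter, and RefSeq windows (GRCh38.p14) of 250 bases before to 50 bases after the start were at hand for 5 of the 6 genes. SCAF4 had no entry. RPRD1A, RPRD1B and SCAF8 are shown because they share a motif next to the start, and U2SURP because its RefSeq start lies 37073 bp inside the span of the count table. The windows are chr18:36067510-36067809 on the minus strand for RPRD1A, chr20:38033496-38033795 on the plus strand for RPRD1B, chr6:154733128-154733427 on the plus strand for SCAF8 and chr3:143001320-143001619 on the plus strand for U2SURP. Each is written 5′ to 3′ in the direction of transcription, with matches to the YY1, CRE, ETS and E-box motifs in capitals.
RPRD1A: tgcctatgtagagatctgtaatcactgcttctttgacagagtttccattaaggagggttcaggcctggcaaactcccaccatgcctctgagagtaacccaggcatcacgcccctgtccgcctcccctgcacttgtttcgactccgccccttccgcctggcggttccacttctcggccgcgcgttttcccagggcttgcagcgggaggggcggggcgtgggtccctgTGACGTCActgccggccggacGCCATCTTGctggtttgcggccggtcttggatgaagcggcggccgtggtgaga
RPRD1B: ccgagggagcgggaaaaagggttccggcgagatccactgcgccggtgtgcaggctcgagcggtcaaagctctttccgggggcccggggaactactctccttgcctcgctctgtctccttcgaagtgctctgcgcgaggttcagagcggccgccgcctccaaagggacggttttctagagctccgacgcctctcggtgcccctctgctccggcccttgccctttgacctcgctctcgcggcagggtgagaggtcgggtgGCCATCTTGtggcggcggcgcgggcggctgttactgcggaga
SCAF8: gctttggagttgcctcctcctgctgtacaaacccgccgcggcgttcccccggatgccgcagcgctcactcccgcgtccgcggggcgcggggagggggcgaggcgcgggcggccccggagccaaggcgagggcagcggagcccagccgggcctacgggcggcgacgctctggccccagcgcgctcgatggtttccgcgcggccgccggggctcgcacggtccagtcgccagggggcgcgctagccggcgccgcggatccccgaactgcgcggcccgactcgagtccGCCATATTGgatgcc
U2SURP: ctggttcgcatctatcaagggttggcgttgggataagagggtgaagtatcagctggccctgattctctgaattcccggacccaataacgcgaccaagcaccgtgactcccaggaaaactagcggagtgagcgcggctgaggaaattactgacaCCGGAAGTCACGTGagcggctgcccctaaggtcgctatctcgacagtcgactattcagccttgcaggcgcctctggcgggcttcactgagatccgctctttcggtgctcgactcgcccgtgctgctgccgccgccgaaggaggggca

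Motifs were searched on both strands and chosen after the sequences had been read, so the matches are a description only. GCCATNTTG, the core of the site of YY1, a zinc finger factor, was present in RPRD1A, RPRD1B and SCAF8, 3 of the 5 windows, and in 2.92% of 35116 RefSeq windows. The match began 3 bases before the start in RPRD1A, 8 bases after it in RPRD1B and 35 bases after it in SCAF8. The SCAF8 match overlaps one of CCAAT on the other strand. TGACGTCA, the cAMP response element, was found in RPRD1A and in 1.85% of all windows. CCGGAAGT, an ETS site, and CACGTG, an E-box, lie next to each other in U2SURP without overlap, and were present in 4.14% and 7.26% of all windows. The site of NRF1, a factor for genes of mitochondrial and housekeeping proteins, was present in RPRD2 at 2 places and in 5.78% of windows. GGGCGG, the SP/KLF site, was found in RPRD1A, RPRD1B and SCAF8, against 45.0% of windows, and CCAAT in RPRD2, SCAF8 and U2SURP, against 34.6%. TATAAA was found in none of the 5 windows, and in 11.5% of all windows. Among 22199 windows of protein-coding genes the shares were 3.53% for YY1, 2.26% for CRE, 5.34% for ETS and 8.34% for the E-box. They were 7.39% for NRF1, 56.3% for SP/KLF, 34.7% for CCAAT and 9.47% for TATAAA. The GC content was lowest in RPRD2 with 57.0% and highest in SCAF8 with 77.0%, while the median of 22199 windows of protein-coding genes was 62.3%.

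Among the RPRD genes, RPRD1B stood out by its level. RPRD1B, which is known to promote transcription of the cyclin D1 gene, had 354 and 349 normalized CPM in WT replicates 1 and 2 and 423 and 371 normalized CPM in T4A replicates 1 and 2. Both T4A libraries were above both WT libraries, and the T4A libraries were further apart from each other than the WT libraries. The means were 352 ± 3.23 (SD, n = 2) and 397 ± 37.1 (SD, n = 2), a log2 fold change of 0.17 (95% interval -0.07 to 0.42, standard error 0.11, adjusted p = 0.459 from edgeR's test). Libraries of the conditions were likewise apart, in either direction, in 49.5% of all genes tested, and with T4A above WT in 24.8%, so 1 of the 6 genes is not more than this background. RPRD1B without T4A replicate 1 had a log2 fold change of 0.0835 and without T4A replicate 2 one of 0.252, and neither was called (adjusted p = 0.844 and 0.135 from edgeR's test). The difference was thus smallest without T4A replicate 1, of the libraries left out in turn. The RPRD1B count also covers 35.4 kb past the RefSeq end, and the RefSeq gene alone was not tested.

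RPRD1A, first described as an inhibitor of cell cycle entry, had 202 and 227 normalized CPM in the WT libraries and 211 and 192 normalized CPM in the T4A libraries. The conditions overlapped, with the highest and the lowest value each in replicate 2. Its log2 fold change was -0.09 (95% interval -0.32 to 0.15, adjusted p = 0.696, edgeR). RPRD2 had 231 and 242 normalized CPM in WT and 249 and 214 normalized CPM in T4A. Here both extremes came from the T4A libraries, and the log2 fold change of -0.03 was smaller than the log2 difference of -0.21 between T4A replicate 2 and T4A replicate 1. Its 95% interval was -0.27 to 0.21 (adjusted p = 0.901, edgeR).

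SCAF4 varied least among the 6 genes. It had 207 and 222 normalized CPM in WT and 217 and 211 normalized CPM in T4A, so that both T4A values lay between the WT values. The log2 fold change was -0.01 (95% interval -0.22 to 0.2, adjusted p = 0.981, edgeR). SCAF8, which shares its role with SCAF4, had 269 and 303 normalized CPM in WT and 317 and 282 normalized CPM in T4A. The conditions overlapped, since WT replicate 2 was above T4A replicate 2. The log2 fold change of SCAF8 was 0.07 (95% interval -0.19 to 0.32, adjusted p = 0.794, edgeR). For U2SURP, the splicing factor of the set, the values were 247 and 275 normalized CPM in WT and 260 and 252 normalized CPM in T4A. Both T4A values again lay between the WT values. Its log2 fold change was -0.03 (95% interval -0.26 to 0.2, adjusted p = 0.903, edgeR).

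**Figure D2:**
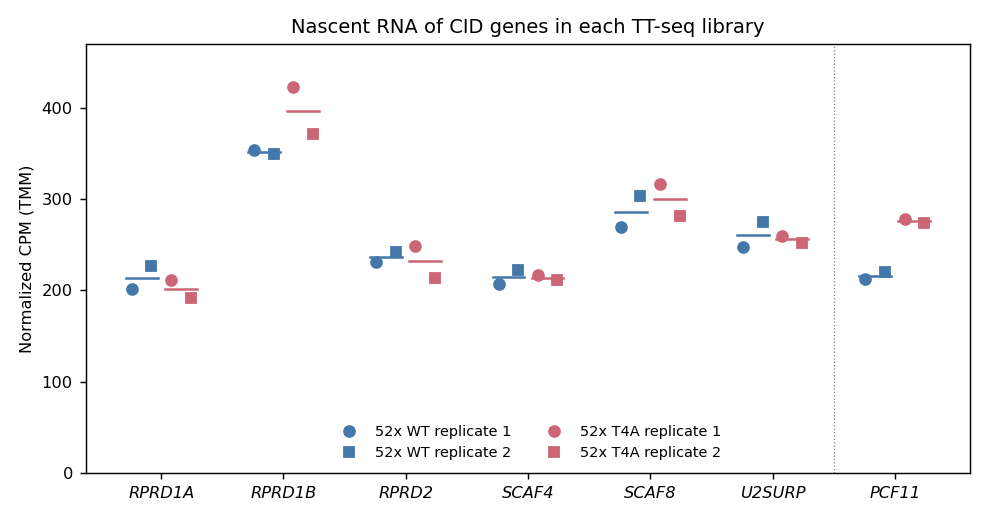
Normalized CPM on the vertical axis for the 6 genes and PCF11. Circles are replicate 1, squares replicate 2, blue is 52x WT, red is 52x T4A, and lines mark the mean of 2 libraries. Only RPRD1B among the 6 genes has both T4A libraries above both WT libraries, and PCF11 does too.

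The replicates of a condition moved in a shared direction across the set. T4A replicate 1 was above T4A replicate 2 in 6 of 6 genes, by a median of 0.152 on the log2 scale against a median of 0.0544 over all genes tested. WT replicate 2 was above WT replicate 1 in 5 of 6 genes, with RPRD1B as the exception. The median of this difference was 0.128, against -0.00887 over all genes. The share of all genes that moved in these directions was not counted, so 6 of 6 and 5 of 6 have no background beside them. The lowest count of any member was 6653, for RPRD1A in T4A replicate 2, and gives a counting error of 1.23%, or 1.73% if each read pair was counted as 2 reads. The coefficient of variation between replicates ran from 0.919% for RPRD1B in WT to 10.5% for RPRD2 in T4A. For RPRD1B the lowest count gives a counting error of 1.25% if read pairs were counted as 2 reads. That count, 12817, was in T4A replicate 2, and the WT counts were higher, at 13854 and 15401.

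**Figure D3:**
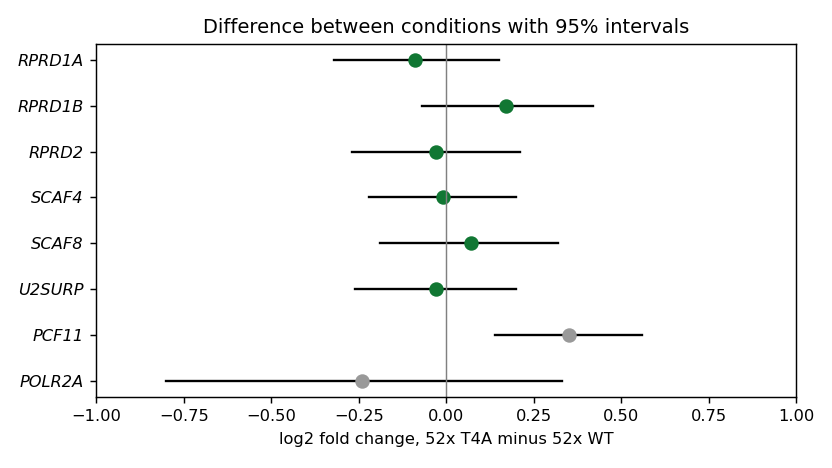
Log2 fold change of 52x T4A minus 52x WT on the horizontal axis, with 95% intervals from edgeR as lines. Green points are the 6 genes, whose intervals all include 0, and gray points are PCF11, with an interval of 0.14 to 0.56, and POLR2A.

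Within each library the balance of the close relatives can be read without any scaling between libraries. The count of RPRD1A over that of RPRD1B was 0.57 and 0.65 in WT and 0.498 and 0.519 in T4A. Here too the RPRD1B count includes any reads from the 35.4 kb past its RefSeq end. Both T4A ratios were below both WT ratios, and the mean log2 ratio differed by -0.26, from -0.72 ± 0.13 (SD, n = 2) in WT to -0.98 ± 0.04 (SD, n = 2) in T4A. An exact two-sided permutation test gave p = 0.333, which is the smallest that this test can give for 2 libraries against 2 (adjusted p = 0.667 over 2 pairs), so it decides nothing about this difference. For SCAF4 over SCAF8 the ratio was 0.769 and 0.732 in WT and 0.683 and 0.748 in T4A, and the conditions overlapped. Its mean log2 ratio differed by -0.07, with an exact permutation p = 0.667 (adjusted p = 0.667). Without T4A replicate 1 the difference was -0.005 for SCAF4 over SCAF8 and -0.229 for RPRD1A over RPRD1B.

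Per length, the mean levels of the 6 genes were above those of most tested protein-coding genes and ran from 2.06 to 4.37 CPM per kb. The level is given as normalized CPM per kb of span not shared with a gene of the same strand. U2SURP was highest with 4.37 ± 0.209 CPM per kb (SD over 4 libraries) and RPRD1B followed with 3.98 ± 0.36 CPM per kb. Their ranges over the libraries, 4.17 to 4.65 and 3.71 to 4.5 CPM per kb, overlap. SCAF4 had 3.5 ± 0.107 CPM per kb, SCAF8 had 2.95 ± 0.217 and RPRD1A had 2.5 ± 0.177 CPM per kb. SCAF4 overlaps neither of its neighbors in this order, while SCAF8 and RPRD1A touch, with 2.71 as the lowest value of SCAF8 and 2.73 as the highest of RPRD1A. RPRD2, the gene with the longest span, was lowest with 2.06 ± 0.132 CPM per kb, and its highest value of 2.19 lies below the lowest of RPRD1A, 2.31 CPM per kb. Among 15329 tested protein-coding genes, with a median of 0.704 CPM per kb, the 6 genes lay between percentile 78.9, for RPRD2, and percentile 92.3, for U2SURP.

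The order depends on the length used. With the count of the table's span divided by the length from RefSeq start to end, RPRD1B rose to 6.39 CPM per kb, the highest. Its span in the count table is 1.6 times its RefSeq length, and reads outside the RefSeq gene stayed in the count. The value is thus an upper limit for the RefSeq gene itself. With the whole span U2SURP fell to 2.68 CPM per kb. With exonic length, which does not suit reads that cover introns, U2SURP came last with 22.9 CPM per exonic kb and RPRD1B first with 70.2. RPRD2 was below SCAF4, SCAF8 and RPRD1B with each of these lengths.

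**Figure D4:**
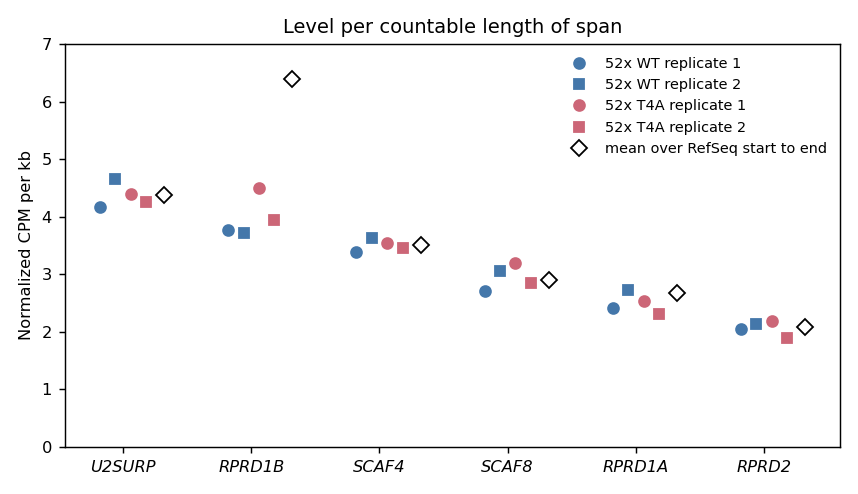
Normalized CPM per kb of span not shared with a gene of the same strand on the vertical axis, with the genes in order of their mean. Circles are replicate 1, squares replicate 2, blue is 52x WT and red is 52x T4A, and open diamonds are the mean over 4 libraries with the RefSeq length. For RPRD1B the diamond lies at 6.39 CPM per kb, above every other value. Diamonds use the count of the table's span, so reads outside the RefSeq gene are included.

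PCF11 and CHERP, the other CID genes, gave 1 measured gene. CHERP, which works with U2SURP in splicing, is listed at 0 in all 4 libraries. The cause was not tested, so this is not read as a lack of transcription. PCF11, a subunit of the cleavage and polyadenylation machinery, had 212 and 220 normalized CPM in WT and 278 and 274 normalized CPM in T4A. Both T4A libraries were above both WT libraries, as in 24.8% of all genes tested, and the gap was wide beside the spread within each condition. The log2 fold change was 0.35 (95% interval 0.14 to 0.56, unadjusted p = 0.00432, adjusted p = 0.209 from edgeR's test), which is not called. DESeq2 called it (adjusted p = 0.00434), and so did edgeR without T4A replicate 2 (adjusted p = 0.0236). In the other 11 alternatives it was not called, with an adjusted p of up to 0.638. DESeq2 called 8.39% of the genes to which it gave an adjusted p. Without its sign, the log2 fold change of PCF11 in edgeR exceeded that of 68.1% of all genes tested. Whether PCF11 differs in its change from the 6 genes was not tested.

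Genes of proteins that work with the 6 gave 0 called genes as well. Of 7 partners and targets of the RPRD proteins, 1 had both T4A libraries above both WT libraries and 2 had both below, against 24.8% and 24.7% of all genes tested. Their median log2 fold change was -0.09, and it was -0.02 for the 6 CID genes and -0.001 for all genes. RPAP2, the phosphatase with which RPRD1A and RPRD1B associate, had 131 and 144 normalized CPM in WT and 122 and 103 normalized CPM in T4A. Both T4A values were below both WT values, and the log2 fold change of -0.29 had an unadjusted p = 0.0242 and an adjusted p = 0.271 in edgeR's test. At the other end, CTNNB1, the gene of β-catenin, had 218 and 230 normalized CPM in WT and 259 and 244 normalized CPM in T4A, and its log2 fold change was 0.17 (adjusted p = 0.42, edgeR). CCND1, the cyclin D1 gene, had 22.2 and 20.9 normalized CPM in WT and 13.4 and 27.0 normalized CPM in T4A. The T4A libraries lay on either side of both WT libraries.

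For SCAF1 and SCAF11, named like SCAF4 and SCAF8 but without a CID, the log2 fold changes were -0.24 and -0.03 (adjusted p = 0.504 and 0.9, edgeR). The 19 genes of the U2 snRNP and its associated proteins, the surroundings of U2SURP, had a median log2 fold change of 0.02, with 10 above 0 and 9 below. Both T4A libraries were above both WT libraries in 5 of them and below in 5, against 24.8% and 24.7% of all genes tested. The highest log2 fold change was 0.28 for SNRPA1, the U2 A′ protein gene (unadjusted p = 0.0117, adjusted p = 0.243, edgeR), and the lowest was -0.3 for SF3B4 (adjusted p = 0.406, edgeR). RBM17, which forms a complex with U2SURP and CHERP, had 89.8 and 88.2 normalized CPM in WT and 92.4 and 88.2 normalized CPM in T4A. As in U2SURP, the conditions overlapped, with a log2 fold change of 0.02 (adjusted p = 0.92, edgeR).

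**Figure D5:**
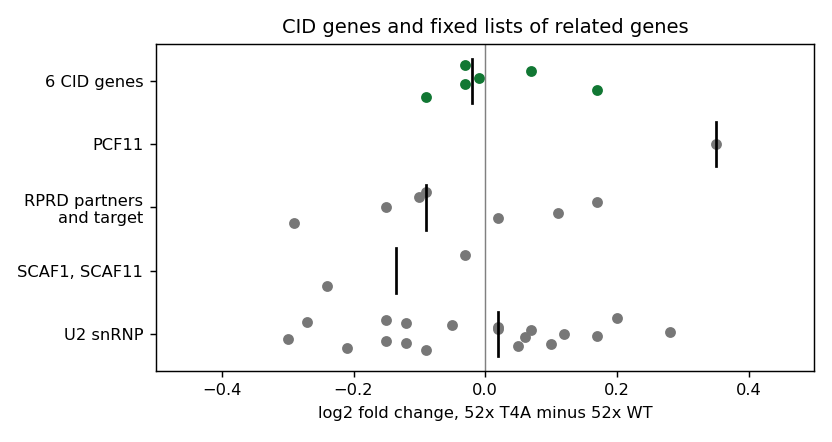
Log2 fold change of 52x T4A minus 52x WT on the horizontal axis for each tested gene of 5 lists. Points are genes, spread vertically within a list for legibility, and black lines are list medians, which lie at -0.02 for the 6 CID genes in green and at 0.02 for the U2 snRNP genes.

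Patterns over the 4 libraries were compared by the root mean square (RMS) difference of log2 CPM after each gene's mean had been subtracted. U2SURP and SCAF4 were the most alike pair of members, with an RMS difference of 0.0228, and RPRD1A and RPRD1B the least alike, with 0.147. RPRD1B was also the member farthest from each of the others. Of 15328 protein-coding genes compared, SNX18 was nearest to SCAF4 (0.0023) and PAK1IP1 to U2SURP (0.0042). Nearest to RPRD1A was SRFBP1 (0.0054), to RPRD2 NIPA2 (0.0059), to SCAF8 DHX57 (0.0026) and to RPRD1B LPL (0.0087). The second in line were SLC25A16 for SCAF4 (0.0049), PEX13 for U2SURP (0.0054), ADAM10 for RPRD1A (0.006), CEP68 for RPRD2 (0.0065), WSB2 for SCAF8 (0.0059) and IQCG for RPRD1B (0.0098). With only 4 libraries such likeness is common, since between 368 genes, for RPRD1B, and 1169 genes, for RPRD1A, lay within an RMS difference of 0.05.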

How the data were processed

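Counts per gene of uniquely aligned reads were deposited by the authors as 1 featureCounts table of 4 libraries. The submitters' processing notes name cutadapt 4.6, STAR 2.7.11b, Picard and GRCh38, and the version and strand setting of featureCounts are not given in the sources used here. Of 60708 genes, 58700 were named by stable identifier through a GENCODE annotation lifted to GRCh37, which gave names, types and exonic lengths only. Of 19158 protein-coding genes found by symbol, 99.969% overlapped their GRCh38 position in RefSeq. Inside a gene of the other strand only, 14.2% of 2978 lncRNA genes were listed at 0, against 100.0% inside one of their own strand, so strand was used in counting.

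The quasi-likelihood test of edgeR 4.0.16 (R 4.3.3) was run on the raw counts of all 4 libraries after TMM normalization and filterByExpr at its defaults, with the condition as the only term. Genes with a Benjamini-Hochberg adjusted p below 0.05 over 23321 genes were called. Standard errors came from the F statistic and 95% intervals from the t distribution. Paralog ratios were compared by an exact permutation test with 6 regroupings. In counts simulated with known changes the test gave back their sizes, called part of the changed genes, and called unchanged genes at a higher share of all calls than the threshold allows. DESeq2 1.42.0, other normalizations and filters, a replicate block, a 1.5-fold limit and each library left out were tried. The alternatives with halved counts and RefSeq lengths, and the motifs, were chosen after seeing the data. The genes, lists and tests were chosen with earlier results of these data known. Named are the 6 genes, PCF11, CHERP, POLR2A, up to 4 genes of each list with the extreme log2 fold changes, the 2 protein-coding genes nearest in pattern to each member, and genes that overlap a member. CCND1 and RBM17 were named after their values were seen, for their known link to the members. Totals per library were 33188536 to 45605027 counts.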

Additional observations from a re-analysis of the deposited data

How the results depend on the processing

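None of the 6 genes was called in any of 13 alternative fits, in which their adjusted p ran from 0.135 to 0.999, nor with a 1.5-fold limit. Halved counts and RefSeq lengths were chosen after seeing the data, and the cause of the changes below was not tested. Against 1 gene called of all tested, scaling to mitochondrially encoded genes gave 533, DESeq2 867, no filter 150 and the replicate block 533, and leaving out 1 library gave 0 to 3466, with 3466 when T4A replicate 2 was left out, 333 for T4A replicate 1, 3 for WT replicate 1 and 0 for WT replicate 2. A condition with 1 library left is assumed there to vary like the other. The labels do not say whether same-numbered libraries were paired. Their deviations correlated at 0.00498 over genes, which cannot decide it, and under the block no member was called.

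Scaling to mitochondrially encoded genes moved the median of all genes to 0.243. RPRD1A (0.164), RPRD2 (0.221), SCAF4 (0.243) and U2SURP (0.22) turned positive with it, but relative to that median were at -0.0783, -0.0216, -8.02e-05 and -0.023. The 9 mitochondrially encoded genes were themselves lower in T4A, with a median log2 fold change of -0.28. Of them 0 were called, against 0.00429% of all genes tested. Both T4A libraries were below both WT libraries in 7 of the 9, against 24.7% of all genes tested. With library size in place of TMM, RPRD2 (0.0169), SCAF4 (0.0458) and U2SURP (0.022) turned positive. So did RPRD2 (0.00119), SCAF4 (0.0278) and U2SURP (0.00383) with protein-coding genes only, and SCAF4 with at least 10 counts in every library (0.00326) and with halved counts (0.0166). Leaving out 1 library, log2 fold changes ran from -0.136 to 0.0564 for RPRD2, -0.0662 to 0.0261 for SCAF4, -0.0289 to 0.135 for SCAF8, -0.117 to 0.031 for U2SURP, -0.182 to -0.0206 for RPRD1A and 0.0835 to 0.252 for RPRD1B. PCF11 was called with DESeq2 and, of these, without T4A replicate 2 (adjusted p = 0.0236, edgeR), at 0.317 to 0.359. The shift of the RPRD1A to RPRD1B ratio ran from -0.353 to -0.163 and that of SCAF4 to SCAF8 from -0.137 to -0.005.

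Medians less that of all genes were -0.0167 for the 6 CID genes, -0.0895 for RPRD partners, -0.132 for SCAF1 and SCAF11 and 0.0217 for U2 snRNP genes. With no filter they were -0.0976 for CID genes, -0.169 for RPRD partners, -0.212 for SCAF1 and SCAF11 and -0.0593 for U2 snRNP genes. The median of the CID genes turned positive with DESeq2 (0.0555), protein-coding genes only (0.026) and halved counts (0.00448). DESeq2 gave -0.0115 for RPRD partners, -0.058 for SCAF1 and SCAF11 and 0.0605 for U2 snRNP genes, which had 0.064 with protein-coding genes only. With 1 library left out they ran from -0.089 to 0.0388, -0.131 to -0.0249, -0.264 to -0.0372 and -0.0695 to 0.0231, in the order above. Levels per exonic kb were 24.6 CPM for RPRD1A, 70.2 for RPRD1B, 25.3 for RPRD2, 35.8 for SCAF4, 54.0 for SCAF8 and 22.9 for U2SURP. RPRD1B had 6.39 CPM per kb when the count of its table span was divided by the RefSeq length, and U2SURP 2.68 over the whole span.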

Other observations

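Genes that overlap a member on GRCh38 were not called either. TIAM2, whose start overlaps the end of SCAF8 on the same strand, had 103 and 104 normalized CPM in WT and 97.7 and 87.7 normalized CPM in T4A. Both T4A values were lower, while SCAF8 overlapped between the conditions, and the log2 fold change of TIAM2 was -0.16 (adjusted p = 0.42, edgeR). On the other strand, just upstream of the RefSeq start of U2SURP, lies the lncRNA gene ENSG00000268129, from 143000907 to 143001467 on chromosome 3. It had 137 and 161 counts in WT and 159 and 127 counts in T4A, and its log2 fold change was 0.23 (adjusted p = 0.634, edgeR). PAQR9-AS1, which shares the far upstream part of the U2SURP span, had 2 to 13 counts in its own part and was not tested. TGM2 meets the end of the RPRD1B span from the other strand and had 2.81 and 2.5 normalized CPM in WT and 2.98 and 3.15 normalized CPM in T4A, with a log2 fold change of 0.21 (adjusted p = 0.685, edgeR).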
